A study of Mus musculus with 12 samples.

Results

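The cadherins, protocadherins and immunoglobulin-type adhesion molecules of the mouse were followed across 12 Illumina expression arrays. Every probe of the unnormalised signal table whose annotated gene symbol named a numbered cadherin (Cdh), a protocadherin (Pcdh), a Cadm, Ncam or contactin (Cntn) gene, a nectin, or Alcam, Mcam, L1cam or Chl1 was taken, which gave 169 probes of 100 genes among 44505 probes on the array. That rule uses no measured value. The arrays compared 2 immortalised cell lines from mouse striatum: Hdh109/109, whose 2 Hdh alleles were knocked in with 109 CAG repeats each, and Hdh7/7, whose knocked-in alleles carry 7. Huntingtin, which Hdh encodes, carries the expanded repeat in Huntington's disease. Each line was profiled with DNRest, with an empty vector, or without transfection, and each of the 6 groups had 2 arrays. DNRest is commonly a dominant-negative form of the repressor REST, and the labels say no more of the construct. Both lines were grown in serum-containing medium, and the labels record no drug treatment. Each genotype was represented by 1 line, so genotype and line cannot be told apart. The labels call the RNA samples biological replicates without naming separate cultures, so the p-values measure the spread between these samples only.

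Cells hold to one another through these families. Classical cadherins bind the same cadherin on a neighbouring cell in the presence of calcium and are tied to actin through catenins, and neuroepithelial cells are known for N-cadherin, the product of Cdh2. Clustered protocadherins are expressed in combinations that differ from neuron to neuron, each from its own promoter in a gene cluster, and serve self-recognition of neurites. Nectins, Cadm proteins, Ncam1, Alcam, Mcam, L1 family members and contactins carry immunoglobulin domains, bind like or unlike partners across the cell gap without calcium, and act in axon growth, synapse formation and migration.

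Between 10295 and 14370 probes were detected per array at a detection p-value under 0.01, and 18 to 27 of the 169 adhesion probes. The deposited signals had array medians between 70.2 and 161. After normalisation, replicate arrays correlated at 0.979 to 0.993 over the probes tested, arrays of the same line in different states at 0.959 to 0.992, and arrays of different lines at 0.888 to 0.917. For 6 of the 12 arrays the source name gave the other genotype than the title and the genotype entry: both untransfected Hdh109/109 arrays, Hdh109/109 empty vector replicate 1, Hdh7/7 empty vector replicate 2 and both Hdh7/7 DNRest arrays. Titles and genotype entries, which match each other on every array, were used, and the correlations group the arrays by title. The 1 probe for Htt was detected on no Hdh109/109 array and on 5 of 6 Hdh7/7 arrays, and the 1 probe for Rest on none of the 12, so neither gene's level could serve as a check on DNRest. The 2 Hdh7/7 empty vector arrays differed most between replicates, with a root mean square SD of 0.34 in log2 signal over all probes tested.

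Most of these adhesion genes were not detected in either line. Of the 169 probes, 130 (76.9%) were detected on no array, against 63.2% of all probes, and 72 of the 100 genes had no detected probe. All 13 probes of the 6 contactins Cntn1, Cntn2, Cntn3, Cntn4, Cntn5 and Cntn6, which are axonal proteins anchored by lipid, were undetected. L1cam, Chl1 and Ncam2, which are neuronal adhesion genes, were undetected too, as were Cadm3, Cadm4 and Nectin4. Among cadherins, no probe was detected for the epithelial cadherin Cdh1, the endothelial cadherin Cdh5, or for Cdh4, Cdh6, Cdh7, Cdh8, Cdh9, Cdh10, Cdh12, Cdh16, Cdh17, Cdh20 and Cdh23. Among the protocadherins outside the clusters, the same held for Pcdh1, Pcdh8, Pcdh9, Pcdh10, Pcdh12, Pcdh15, Pcdh17 and Pcdh20. A probe that is not detected shows only that its signal was not above the negative control beads.

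In the clusters, 46 of 55 probes were never detected. RefSeq lists 14 genes in the α cluster, 22 in the β cluster and 22 in the γ cluster, of which 6, 21 and 21 had a probe. The undetected α genes were Pcdha1, Pcdha3, Pcdha8, Pcdha12 and Pcdhac1. The undetected β genes were Pcdhb1, Pcdhb2, Pcdhb4, Pcdhb5, Pcdhb6, Pcdhb7, Pcdhb8, Pcdhb9, Pcdhb10, Pcdhb11, Pcdhb12, Pcdhb13, Pcdhb14, Pcdhb15, Pcdhb18, Pcdhb19 and Pcdhb20. The undetected γ genes were Pcdhga1, Pcdhga2, Pcdhga3, Pcdhga5, Pcdhga6, Pcdhga7, Pcdhga8, Pcdhga9, Pcdhga10, Pcdhga12, Pcdhgb1, Pcdhgb5, Pcdhgb6, Pcdhgb7, Pcdhgb8, Pcdhgc3 and Pcdhgc4. A further 5 genes, Cdh11, Cdh18, Pcdha5, Pcdhb16 and Pcdhga4, had a probe detected on 1 array and were not tested.

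**Figure D1:**
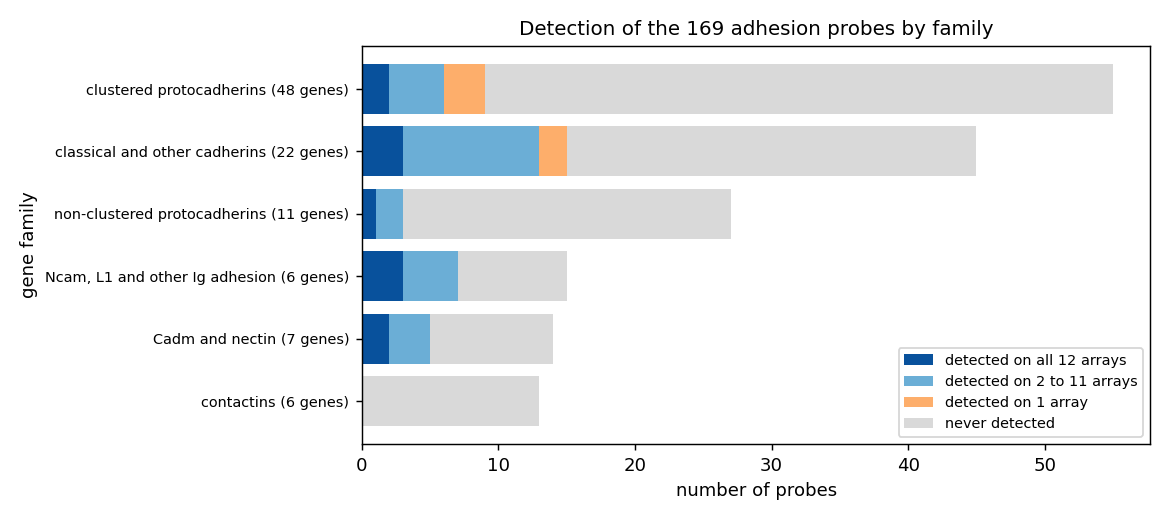
Number of adhesion probes (x axis) in each gene family (y axis), coloured by the number of arrays on which the probe was detected at p under 0.01. All 13 contactin probes were never detected, and 46 of the 55 clustered protocadherin probes were not.

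Detected on at least 2 arrays were 34 adhesion probes (20.1%) of 23 genes, against 34.2% of all probes, and these 34 were tested among 15224 probes in all. A probe counted as changed, or called, at a Benjamini-Hochberg adjusted p under 0.05 in limma, adjusted over all probes tested. Only 11 of the 34 were detected on all 12 arrays. A probe seen in only one line passed the detection rule through that line, so the count of called probes is a description of what was detected and not of all 169. In bulk RNA, fewer cells of a type and less RNA per cell cannot be told apart.

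The first question is how the 2 lines differ. In untransfected cells, 6 of the 34 adhesion probes were higher and 13 were lower in Hdh109/109 than in Hdh7/7 (55.9% called), where 35.7% of all probes tested were called, 17.6% higher and 18% lower. Among empty vector arrays, 10 were higher and 17 were lower (79.4% called), where 43.3% of all probes were called, 22.9% higher and 20.3% lower. Among DNRest arrays, 10 were higher and 14 were lower (70.6% called), where 36.9% of all probes were called, 18.2% higher and 18.6% lower. The median log2 fold change of the 34 probes was −0.40, −0.54 and −0.44 in the 3 states, against 0.02, 0.04 and −0.02 over all probes tested. The 3 comparisons share no array, but they compare the same 2 lines and take each probe's spread from 1 fit of all 12 arrays. They are therefore not independent of one another. With only probes detected on all 12 arrays, 36.4%, 81.8% and 63.6% of 11 adhesion probes were called in the 3 states. Of all such probes 43.8%, 48.3% and 43.6% were called, so the untransfected share was then below that of all probes. With no detection filter 13.6%, 17.2% and 14.2% of the 169 adhesion probes were called, against 10.9%, 14% and 11.2% of all probes. Leaving out the arrays whose labels conflict leaves a single array of each line with the empty vector, and a line with no array in the other states. The 2 arrays of high background were untransfected Hdh109/109 replicate 2 and Hdh7/7 empty vector replicate 2, with array medians of 156 and 161. Without them the Hdh7/7 empty vector group also keeps a single array. Such fits take their spread from other groups, so they are no check on the labels or the background. With arrays scaled by their medians instead, the counts were 7 higher and 10 lower untransfected (50% called, against 21.3% of all probes), 11 and 8 in empty vector cells (55.9%, against 48.2%), and 10 and 9 in DNRest cells (55.9%, against 22.7%). The empty vector share was then near that of all probes, of whose calls 91% were higher, and the median of all probes stood at 0.62 with the empty vector and 0.17 with DNRest.

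Across the 3 states, 6 probes were called higher in Hdh109/109 every time (17.6%, against 9.1% of all probes tested) and 12 were called lower every time (35.3%, against 8.71%). Higher each time were the 3 probes of Cdh3 and the probes of Pcdhb17, Pcdhb21 and Pcdhb22. Lower each time were the 2 probes each of Cadm1 and Alcam, 2 of the 3 Cdh2 probes, 1 of the 4 Ncam1 probes, and the probes of Mcam, Nectin3, Pcdhgb2, Cdh22 and Cdh26. None of the 6 higher probes was detected in the other line, so each entered the test through the line where it was high. Of the 12 lower probes, those of Cadm1, Cdh22, Cdh26 and Pcdhgb2 were detected on no Hdh109/109 array. Such probes passed the detection rule through 1 line, so these shares cannot be read as an excess over all probes. Some of the calls behind both counts were lost under median scaling, as given by gene below. The probes of Cdh19, Pcdh18 and Pcdh19 and 2 Ncam1 probes were called in no state.

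**Figure D2:**
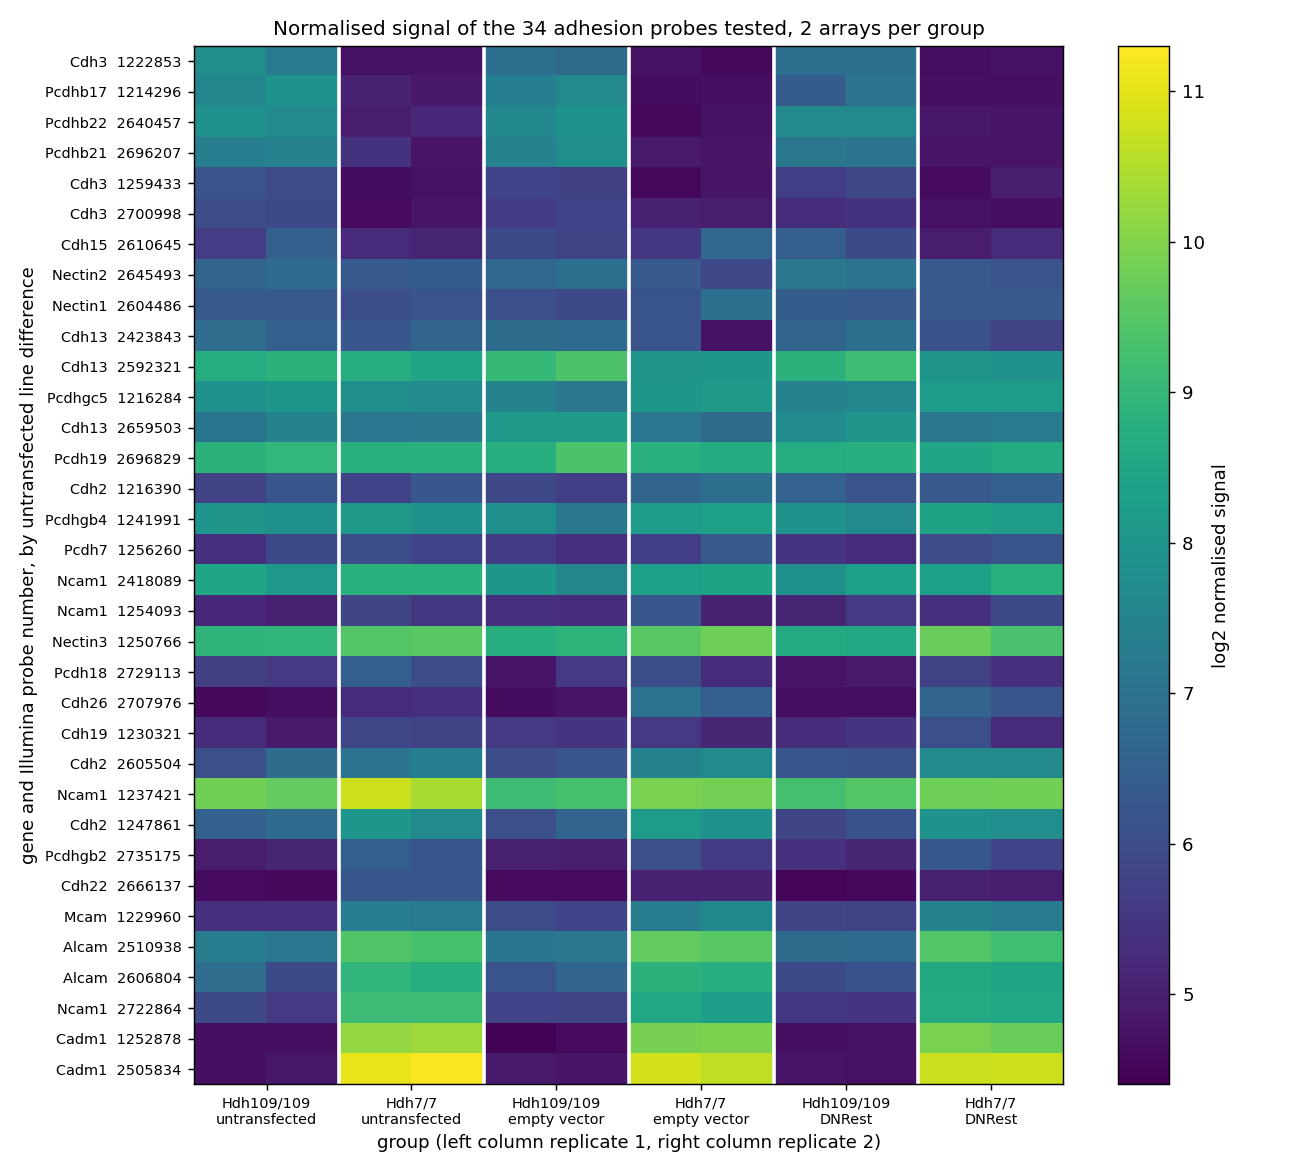
Log2 normalised signal (colour) of the 34 adhesion probes tested (rows, gene and Illumina probe number) on the 12 arrays (columns, 2 per group), with rows ordered by the difference between untransfected lines. The Cadm1 rows at the bottom read 4.44 to 4.89 in every Hdh109/109 column and 9.76 to 11.24 in every Hdh7/7 column.

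**Figure D3:**
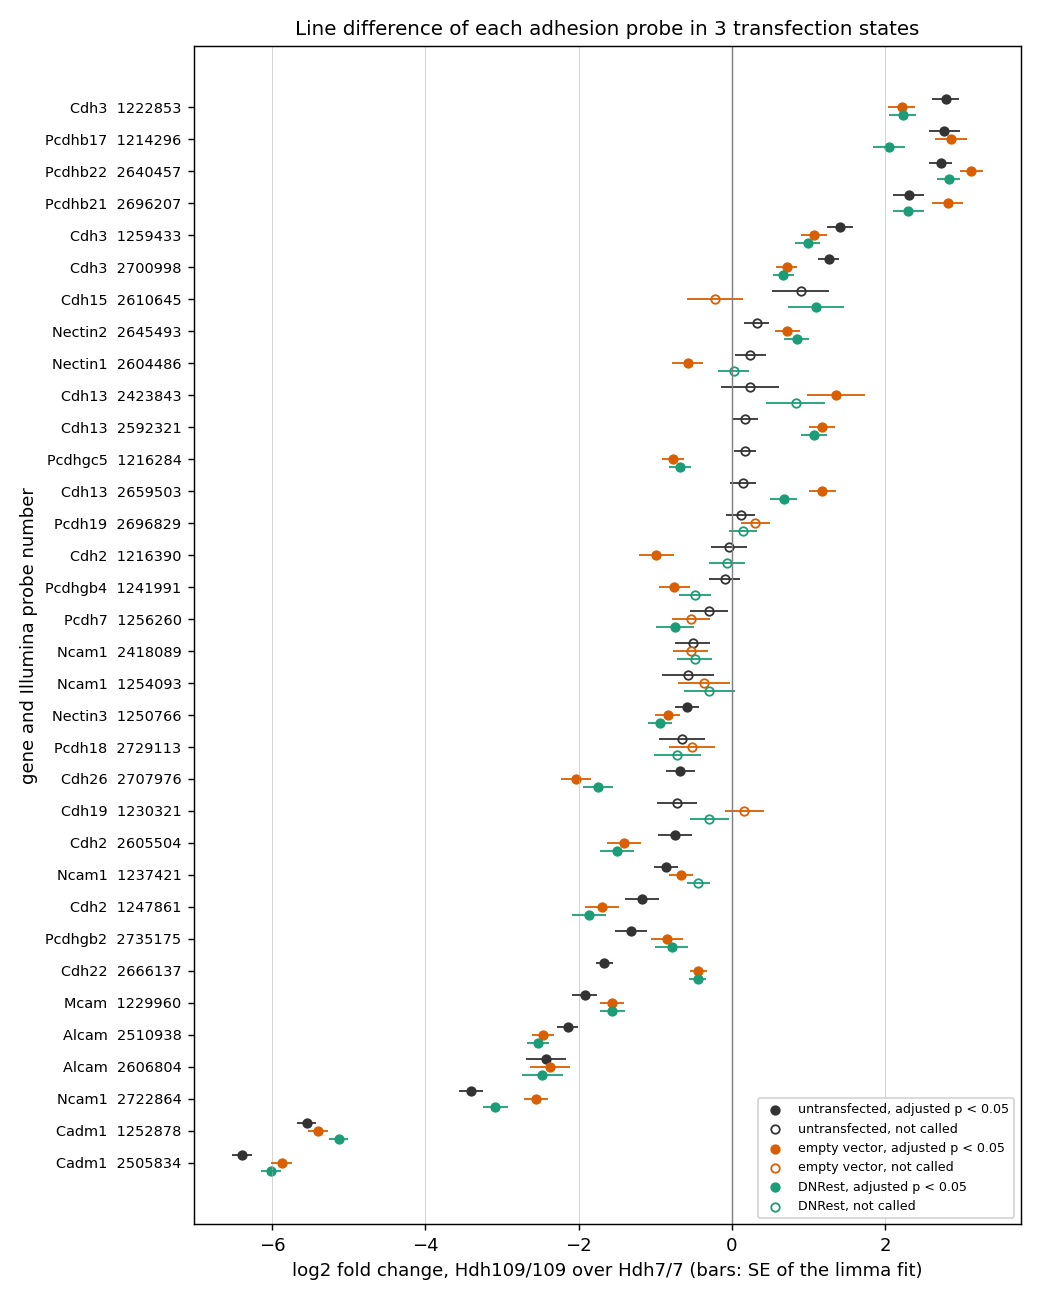
Fitted log2 fold change of Hdh109/109 over Hdh7/7 (x axis, bars are the SE of the limma fit) for each adhesion probe (y axis) in the 3 transfection states, filled where the adjusted p was under 0.05. For probes not detected in one or both lines the plotted value is the fitted difference, which can be read only as a direction. With arrays scaled by their medians instead, the empty vector values of Nectin1, Pcdhgb4 and Pcdhgc5 turn to 0.08, 0.03 and 0.03.

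Among the immunoglobulin-type genes, Cadm1 separated the lines by the most. Its product is a synaptic and epithelial adhesion protein that binds itself and other Cadm proteins. Probe ILMN_2505834 read 4.68 and 4.85 in untransfected Hdh109/109 cells and 11.08 and 11.24 in untransfected Hdh7/7 cells (log2 normalised signal, as are all levels below). Empty vector cells read 4.89 and 4.81 in Hdh109/109 and 10.83 and 10.63 in Hdh7/7, and with DNRest 4.79 and 4.71 in Hdh109/109 and 10.75 and 10.77 in Hdh7/7. The probe was detected on all 6 Hdh7/7 arrays and on no Hdh109/109 array, and the groups did not come near each other. Where a probe was undetected in a whole group, the fold is given as a lower bound, with the dim group set no lower than the dimmest signal detected on its arrays. The bright group enters by its mean, including any array that did not detect the probe, and the bound makes no allowance for replicate spread. On that bound Cadm1 was at least 37.1-fold lower in untransfected Hdh109/109 cells, at least 31.9-fold lower with the empty vector and at least 28.1-fold lower with DNRest (limma, adjusted p = 2.22e-09, 3.53e-09 and 5.02e-09). The second probe, ILMN_1252878, gave bounds of at least 19.5-fold, 18.2-fold and 14.8-fold lower in the same order of states.

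Ncam1, the neural cell adhesion molecule, had 4 probes tested, all with a lower fitted level in Hdh109/109, and they disagreed on the size. Probe ILMN_2722864 read 5.93 and 5.54 in untransfected Hdh109/109 and 9.14 and 9.13 in untransfected Hdh7/7, a log2 fold change of −3.41 ± 0.16 (SE, limma adjusted p = 1.5e-07). It read 5.79 and 5.84 in Hdh109/109 against 8.51 and 8.23 in Hdh7/7 with the empty vector (−2.56 ± 0.16) and was at least 6.13-fold lower with DNRest, where no Hdh109/109 array detected it at 5.53 and 5.43 and Hdh7/7 read 8.61 and 8.51. Every Hdh109/109 array lay below every Hdh7/7 array for this probe. Probe ILMN_1237421, detected on all 12 arrays, read 9.82 and 9.64 in untransfected Hdh109/109 and 10.76 and 10.40 in untransfected Hdh7/7. Its difference was −0.85 ± 0.16 in untransfected cells, −0.66 ± 0.16 with the empty vector (9.15 and 9.30 in Hdh109/109 against 9.91 and 9.87 in Hdh7/7, and −0.03 with an adjusted p of 0.946 under median scaling), and −0.44 ± 0.16 with DNRest (9.26 and 9.47 in Hdh109/109 against 9.77 and 9.83 in Hdh7/7), where it missed the threshold at an adjusted p of 0.0508. The third probe, ILMN_2418089, also detected on all 12 arrays, was not called in any state, with log2 fold changes of −0.51, −0.54 and −0.49. It read 8.50 and 8.08 in untransfected Hdh109/109 against 8.80 and 8.80 in Hdh7/7, 8.04 and 7.55 in Hdh109/109 against 8.28 and 8.38 in Hdh7/7 with the empty vector, and 7.85 and 8.29 in Hdh109/109 against 8.33 and 8.78 in Hdh7/7 with DNRest. The lines did not overlap for this probe in any state, but stood close together relative to the spread between replicates. The fourth probe, ILMN_1254093, was detected on 2 arrays and not called. Which Ncam1 transcript each probe reads is not stated in these sources, and whether that accounts for the disagreement was not tested.

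Alcam and Mcam, relatives with immunoglobulin domains, were both lower in Hdh109/109 in every state. Alcam binds itself and CD6 and guides axon growth, and Mcam is an adhesion receptor of endothelial and perivascular cells. Alcam probe ILMN_2510938, detected on all 12 arrays, read 7.32 and 7.11 in untransfected Hdh109/109 and 9.43 and 9.29 in untransfected Hdh7/7 (log2 fold change −2.14 ± 0.14, adjusted p = 1.86e-06). In empty vector cells it read 7.08 and 7.13 in Hdh109/109 and 9.64 and 9.50 in Hdh7/7, and with DNRest 6.79 and 6.81 in Hdh109/109 against 9.46 and 9.19 in Hdh7/7. The lines did not overlap in any state, with differences of −2.47 and −2.53 in the transfected states. The second Alcam probe, ILMN_2606804, gave −2.42, −2.37 and −2.47. Mcam read 5.32 and 5.39 in untransfected Hdh109/109, where it was not detected, and 7.34 and 7.21 in untransfected Hdh7/7, at least 2.52-fold lower (adjusted p = 9.71e-06). In empty vector cells Mcam was detected in Hdh109/109 too, at 6.02 and 5.78 in Hdh109/109 against 7.31 and 7.61 in Hdh7/7 (−1.56 ± 0.16), and with DNRest it was undetected in Hdh109/109 at 5.85 and 5.74 in Hdh109/109 against 7.48 and 7.22 in Hdh7/7, at least 2.65-fold lower. All Mcam readings of Hdh109/109 lay below all readings of Hdh7/7.

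The nectins, which recruit afadin to young junctions, moved in different directions. Nectin3, detected on all 12 arrays, was lower in Hdh109/109 in every state: 8.90 and 8.91 in Hdh109/109 against 9.45 and 9.52 in Hdh7/7 untransfected, 8.75 and 8.88 in Hdh109/109 against 9.53 and 9.77 in Hdh7/7 with the empty vector, and 8.63 and 8.52 in Hdh109/109 against 9.72 and 9.32 in Hdh7/7 with DNRest. Its log2 fold changes were −0.58, −0.84 and −0.94 (SE 0.16 each, adjusted p = 0.0165, 0.00208 and 0.0012). Under median scaling Nectin3 kept its sign and was not called in any of the 3 states. Nectin2 was higher in Hdh109/109 with the empty vector (6.73 and 6.92 in Hdh109/109 against 6.32 and 5.88 in Hdh7/7, log2 fold change 0.72 ± 0.16) and with DNRest (7.14 and 7.04 in Hdh109/109 against 6.33 and 6.16 in Hdh7/7, 0.85 ± 0.16). In untransfected cells Nectin2 read 6.66 and 6.82 in Hdh109/109 against 6.39 and 6.43 in Hdh7/7, which did not overlap and was not called (0.33 ± 0.16, adjusted p = 0.153). Nectin1 had a single call, lower in Hdh109/109 with the empty vector, at 6.07 and 5.91 in Hdh109/109 against 6.20 and 6.93 in Hdh7/7 (−0.57 ± 0.20, adjusted p = 0.0433), its sign turned under median scaling (0.08), and 3 of 21 alternatives kept the call. Nectin1 was detected on all 12 arrays and read 6.35 and 6.35 in Hdh109/109 against 6.07 and 6.16 in Hdh7/7 untransfected, and 6.44 and 6.32 in Hdh109/109 against 6.33 and 6.39 in Hdh7/7 with DNRest, neither of them called.

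Of the classical cadherins, Cdh2 was lower and Cdh3 was higher in Hdh109/109. Cdh2 probe ILMN_1247861 read 6.55 and 6.81 in untransfected Hdh109/109 and 8.03 and 7.67 in untransfected Hdh7/7 (log2 fold change −1.17 ± 0.22, adjusted p = 0.00252). With the empty vector it read 6.08 and 6.66 in Hdh109/109 against 8.22 and 7.90 in Hdh7/7 (−1.69 ± 0.22), and with DNRest 5.85 and 6.13 in Hdh109/109 against 7.93 and 7.78 in Hdh7/7 (−1.87 ± 0.22). The lines did not overlap in any state. Probe ILMN_2605504, detected on all 12 arrays, read 6.09 and 6.83 in Hdh109/109 against 7.03 and 7.37 in Hdh7/7 untransfected (−0.74 ± 0.23, adjusted p = 0.028), 6.03 and 6.23 in Hdh109/109 against 7.42 and 7.66 in Hdh7/7 with the empty vector (−1.41 ± 0.23), and 6.20 and 6.11 in Hdh109/109 against 7.66 and 7.64 in Hdh7/7 with DNRest (−1.50 ± 0.23). The third probe, ILMN_1216390, was called with the empty vector only, at 5.89 and 5.69 in Hdh109/109 against 6.66 and 6.90 in Hdh7/7 (−0.99 ± 0.23), and its untransfected arrays overlapped, so the Cdh2 probes do not give the same answer in all states. Under median scaling the empty vector call of ILMN_1216390 was lost (adjusted p = 0.305), as were the untransfected and empty vector calls of ILMN_2605504 (adjusted p = 0.0747 and 0.0536).

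Cdh3 encodes P-cadherin, a classical cadherin of basal epithelia. All 3 of its probes were called higher in Hdh109/109 in all 3 states, though only 1 of them was bright enough to give a fold in every state. Probe ILMN_1222853 read 7.80 and 7.23 in untransfected Hdh109/109 and 4.75 and 4.70 in untransfected Hdh7/7, 6.92 and 6.78 in Hdh109/109 against 4.70 and 4.56 in Hdh7/7 with the empty vector, and 6.92 and 6.94 in Hdh109/109 against 4.65 and 4.74 in Hdh7/7 with DNRest. It was detected on all 6 Hdh109/109 arrays and on no Hdh7/7 array, and was at least 3.21-fold, 1.44-fold and 1.86-fold higher in these states (adjusted p = 1.33e-06, 6.33e-06 and 6.76e-06). Probes ILMN_1259433 and ILMN_2700998 were dimmer. In untransfected cells they read 6.16 and 5.98 in Hdh109/109 against 4.62 and 4.70 in Hdh7/7, and 6.04 and 5.91 in Hdh109/109 against 4.60 and 4.82 in Hdh7/7, at least 1.18-fold and 1.10-fold higher. Of the 4 untransfected Hdh109/109 readings, 1 per probe was detected. No fold can be given for either of them with the empty vector or DNRest, where the mean signal was below the dimmest detected signal or, for ILMN_2700998 with DNRest, undetected in both lines, and that last call was lost under median scaling (adjusted p = 0.136). In RefSeq, Cdh3 stands next to Cdh1, and Cdh1 was detected on none of the 12 arrays.

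Cdh13, or T-cadherin, is anchored by lipid and lacks the catenin-binding tail of other cadherins. Its 3 probes did not differ between untransfected lines by the test (log2 fold changes 0.24, 0.18 and 0.14), and the arrays of the lines overlapped. All 3 were higher in empty vector Hdh109/109 cells. Probe ILMN_2592321, detected on all 12 arrays, read 9.03 and 9.39 in Hdh109/109 against 8.01 and 8.06 in Hdh7/7 with the empty vector (1.18 ± 0.17, adjusted p = 0.000409), 8.85 and 9.15 in Hdh109/109 against 7.97 and 7.88 in Hdh7/7 with DNRest (1.07 ± 0.17), and 8.67 and 8.82 in Hdh109/109 against 8.71 and 8.44 in Hdh7/7 in untransfected cells. Probe ILMN_2659503, also detected on all 12 arrays, read 8.13 and 8.12 in Hdh109/109 against 7.11 and 6.78 in Hdh7/7 with the empty vector (1.18 ± 0.17), 7.74 and 7.99 in Hdh109/109 against 7.14 and 7.24 in Hdh7/7 with DNRest (0.68 ± 0.17), and 7.07 and 7.49 in Hdh109/109 against 7.10 and 7.17 in Hdh7/7 untransfected. The separation of the lines in transfected cells thus appeared with 2 probes in both transfected states. Probe ILMN_2423843 read 6.84 and 6.81 in Hdh109/109 against 6.20 and 4.73 in Hdh7/7 with the empty vector, where the 2 Hdh7/7 arrays differed widely and 1 of them did not detect it.

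The remaining cadherins were dim. Cdh22, a brain cadherin, was detected only in untransfected Hdh7/7 cells, at 4.60 and 4.56 in Hdh109/109 and 6.26 and 6.24 in Hdh7/7, at least 1.23-fold lower (adjusted p = 2.08e-06). In cells with the vector (4.60 and 4.61 in Hdh109/109 against 5.03 and 5.06 in Hdh7/7) and with DNRest (4.53 and 4.56 in Hdh109/109 against 5.01 and 4.96 in Hdh7/7) it was called lower while detected in neither line, so no fold is given. Both of these calls were lost under median scaling (adjusted p = 0.255 and 0.329). Cdh26, described in human tissue as a cadherin of epithelia in allergic inflammation, was undetected in all untransfected arrays at 4.56 and 4.66 in Hdh109/109 and 5.22 and 5.35 in Hdh7/7. It was called lower there too (adjusted p = 0.0232), and that call was lost under median scaling (adjusted p = 0.0955). In transfected cells Hdh7/7 detected it on 3 of 4 arrays: it read 4.64 and 4.77 in Hdh109/109 against 6.99 and 6.47 in Hdh7/7 with the empty vector, at least 1.99-fold lower, and 4.68 and 4.65 in Hdh109/109 against 6.64 and 6.19 in Hdh7/7 with DNRest, at least 1.39-fold lower. Cdh15, the muscle cadherin, was detected on 5 arrays, all Hdh109/109, and was called in the DNRest state only, at 6.46 and 5.95 in Hdh109/109 against 4.95 and 5.27 in Hdh7/7, at least 1.12-fold higher (adjusted p = 0.0403, called in 10 of 19 alternatives). With the empty vector the lines overlapped, and the mean was 5.88 in Hdh109/109 against 6.10 in Hdh7/7 (−0.22, not called). The dimmest detected signal of Hdh7/7 empty vector replicate 2 was 6.69, so Cdh15 cannot be called absent there. Cdh19, a cadherin of Schwann cell precursors, was detected on 2 Hdh7/7 arrays and not called.

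Of the clustered protocadherins, 3 β and 3 γ genes were tested and no α gene. The β genes Pcdhb17, Pcdhb21 and Pcdhb22 were higher in Hdh109/109 in every state. Among the γ genes, Pcdhgb2 was called lower in every state, Pcdhgc5 in the transfected states and Pcdhgb4 with the empty vector. Pcdhb22 read 7.86 and 7.67 in untransfected Hdh109/109 and 4.92 and 5.16 in untransfected Hdh7/7, at least 3.81-fold higher (adjusted p = 5.24e-07). It read 7.63 and 7.91 in Hdh109/109 against 4.55 and 4.73 in Hdh7/7 with the empty vector (at least 2.72-fold higher) and 7.65 and 7.64 in Hdh109/109 against 4.84 and 4.80 in Hdh7/7 with DNRest (at least 3.05-fold higher). Pcdhb17 read 7.57 and 7.95 in Hdh109/109 against 5.09 and 4.88 in Hdh7/7 untransfected, 7.39 and 7.64 in Hdh109/109 against 4.62 and 4.69 in Hdh7/7 with the empty vector, and 6.41 and 7.02 in Hdh109/109 against 4.69 and 4.65 in Hdh7/7 with DNRest, at least 3.8-fold, 2.27-fold and 1.6-fold higher. Each of these probes was detected on all 6 Hdh109/109 arrays and on no Hdh7/7 array. Pcdhb21 read 7.35 and 7.42 in Hdh109/109 against 5.40 and 4.75 in Hdh7/7 untransfected, 7.47 and 7.83 in Hdh109/109 against 4.90 and 4.76 in Hdh7/7 with the empty vector, and 7.14 and 7.05 in Hdh109/109 against 4.82 and 4.76 in Hdh7/7 with DNRest, at least 2.93-fold, 2.5-fold and 2.08-fold higher. In RefSeq's order of the β cluster Pcdhb17, Pcdhb21 and Pcdhb22 are numbers 17, 21 and 22 of 22. Near-identical exons are common in these clusters, and whether a probe also reads a related gene was not tested.

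Of the γ genes, Pcdhgb2 read 4.96 and 5.14 in untransfected Hdh109/109, where it was not detected, and 6.49 and 6.24 in untransfected Hdh7/7, at least 1.34-fold lower (adjusted p = 0.000939). In empty vector (5.04 and 4.98 in Hdh109/109 against 6.09 and 5.62 in Hdh7/7) and DNRest (5.39 and 5.12 in Hdh109/109 against 6.30 and 5.79 in Hdh7/7) cells, 1 of 2 Hdh7/7 arrays detected it in each. The computed bounds of 1.09-fold and 1.07-fold lower rest on means that include an undetected array, so no firm fold can be given there. Neither call held under median scaling (adjusted p = 0.0508 and 0.221). Pcdhgc5, detected on all 12 arrays, did not separate untransfected lines (7.88 and 8.04 in Hdh109/109 against 7.84 and 7.74 in Hdh7/7). It read 7.50 and 7.13 in Hdh109/109 against 8.06 and 8.10 in Hdh7/7 with the empty vector (−0.76 ± 0.15, adjusted p = 0.00232, turned to 0.03 and not called under median scaling) and 7.46 and 7.58 in Hdh109/109 against 8.19 and 8.20 in Hdh7/7 with DNRest (−0.68 ± 0.15, not called under median scaling at an adjusted p of 0.432). Pcdhgb4, also detected on all 12 arrays, was called once, with the empty vector, at 7.83 and 7.17 in Hdh109/109 against 8.21 and 8.29 in Hdh7/7 (−0.75 ± 0.21, turned to 0.03 under median scaling). Its other arrays read 7.97 and 7.90 in Hdh109/109 against 8.11 and 7.95 in Hdh7/7 untransfected, which overlapped, and 7.95 and 7.65 in Hdh109/109 against 8.37 and 8.19 in Hdh7/7 with DNRest.

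Outside the clusters, 3 protocadherins were tested. Pcdh19, which in zebrafish works with N-cadherin in the neural plate, was detected on all 12 arrays and not called in any state. It read 8.84 and 8.98 in untransfected Hdh109/109 against 8.79 and 8.80 in Hdh7/7, 8.73 and 9.34 in Hdh109/109 against 8.81 and 8.65 in Hdh7/7 with the empty vector, and 8.66 and 8.74 in Hdh109/109 against 8.46 and 8.65 in Hdh7/7 with DNRest. The log2 fold changes were 0.12, 0.30 and 0.15 (SE 0.19 each). The lines overlapped with the empty vector, and in the other states they did not overlap but stood close together. Pcdh7 was detected on 2 Hdh7/7 arrays and called in the DNRest state only, at 5.43 and 5.27 in Hdh109/109 against 6.00 and 6.19 in Hdh7/7 (adjusted p = 0.039, called in 9 of 19 alternatives). Its computed bound of 1.11-fold lower rests on a mean in which only 1 of the 2 Hdh7/7 arrays detected the probe. Pcdh18 was detected on 3 Hdh7/7 arrays and not called.

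The next question is whether DNRest moved these genes relative to the empty vector. No adhesion probe was called in Hdh7/7, where 15 of all probes tested (0.0985%) were called, and none in Hdh109/109, where 21 (0.138%) were, 0.131% higher and 0.00657% lower. At an unadjusted p under 0.05, 2 of the 34 passed in Hdh7/7 (5.88%, against 7.07% of all probes) and 4 in Hdh109/109 (11.8%, against 11.6%), which is near the share of all probes, and the smallest adjusted p of an adhesion probe was 0.638 in Hdh7/7 and 0.326 in Hdh109/109 (limma). The lowest unadjusted p was that of Pcdhb17 in Hdh109/109, which read 6.41 and 7.02 with DNRest and 7.39 and 7.64 with the empty vector (−0.80 ± 0.21). In Hdh7/7 it was that of Cdh15, which was undetected in both groups. The difference between the lines in the DNRest response was called for none of the 15224 probes (0%) and had an unadjusted p under 0.05 for 4 of the 34 adhesion probes (11.8%) and 8.23% of all. Without Hdh7/7 empty vector replicate 1, 2 adhesion probes (5.88%) were called in Hdh7/7, where 7.42% of all probes were, and 3 (8.82%) for the difference between the lines, where 5.41% of all were. In the other gene lists read below, 1 gene of the cadherin superfamily was called higher with DNRest in Hdh109/109, and 1 neuron marker in Hdh7/7. A missed threshold with 2 arrays a group does not show that the adhesion genes were unaffected.

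The empty vector itself was compared with untransfected cells within each line. In Hdh7/7, 1 adhesion probe was higher and 3 were lower with the empty vector, where 15.8% of all probes were called (6.21% higher and 9.58% lower). In Hdh109/109, 1 was higher and 1 was lower, where 2.91% of all probes were called (1.96% higher and 0.952% lower). These comparisons share their empty vector and untransfected arrays with the line comparisons above. In Hdh7/7, Cdh22 was lower with the empty vector, at 5.03 and 5.06 against 6.26 and 6.24 untransfected (adjusted p = 0.000378), and was detected in the untransfected arrays alone. Cdh26 was higher with the empty vector, at 6.99 and 6.47 against 5.22 and 5.35 untransfected, at least 1.86-fold (adjusted p = 0.00189). Ncam1 was lower with the empty vector by both of its called probes, at 8.51 and 8.23 against 9.14 and 9.13 untransfected for ILMN_2722864 (−0.77 ± 0.16, adjusted p = 0.0114), and at 9.91 and 9.87 against 10.76 and 10.40 untransfected for ILMN_1237421 (−0.69 ± 0.16, adjusted p = 0.0158). None of these groups overlapped. In Hdh109/109, Cdh13 probe ILMN_2659503 was higher with the empty vector, at 8.13 and 8.12 against 7.07 and 7.49 untransfected (0.84 ± 0.17, adjusted p = 0.0332). Pcdhgc5 was lower with the empty vector, at 7.50 and 7.13 against 7.88 and 8.04 untransfected (−0.64 ± 0.15, adjusted p = 0.0479, and 0.722 under median scaling). The 4 calls of Hdh7/7 (11.8%) became 12 without its empty vector replicate 1 (35.3%, against 25.3% of all probes), 2 without its empty vector replicate 2 (5.88%, against 7.61%) and 2 without its untransfected replicate 1 (5.88%, against 4.78%). Neither call of Hdh109/109 held without its untransfected replicate 1, its empty vector replicate 2, or any 1 array of 6 others that enter through the shared spread: both untransfected Hdh7/7 arrays and the 4 DNRest arrays.

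The empty vector response differed between the lines for 6 adhesion probes, 4 with a higher and 2 with a lower response in Hdh109/109, where 12.2% of all probes tested were called (7.17% higher and 4.99% lower). The difference in response, Hdh109/109 minus Hdh7/7, was 1.04 ± 0.25 and 1.00 ± 0.24 for the Cdh13 probes ILMN_2659503 and ILMN_2592321 (adjusted p = 0.0261 and 0.0265). It was 0.85 ± 0.22 for Ncam1 probe ILMN_2722864 and −0.94 ± 0.21 for Pcdhgc5 (adjusted p = 0.0372 and 0.0193), of which the second was −0.18 and not called under median scaling (adjusted p = 0.793). In Hdh109/109 that Ncam1 probe lay near background, at means of 5.73 untransfected and 5.81 with the empty vector, and 1 array of each group detected it. A fall there could hardly be seen. No other Ncam1 probe was called, the lowest value being −0.03, and 7 of 19 alternatives kept the call. For Cdh22 it was 1.23 ± 0.16 and for Cdh26 −1.36 ± 0.28 (adjusted p = 0.00167 and 0.0141), and for both the Hdh109/109 arrays were undetected in either state, so the difference rests on Hdh7/7. The count of 6 (17.6%) was 9 without Hdh7/7 empty vector replicate 1 (26.5%, against 22.9% of all probes), 1 without Hdh7/7 untransfected replicate 1 (2.94%, against 4.43%), and 3 (8.82%, against 5.81% to 7.16%) without Hdh7/7 untransfected replicate 2, Hdh109/109 untransfected replicate 2 or Hdh109/109 empty vector replicate 2. Genes of the interferon response were called higher with the empty vector in Hdh109/109 (13 of 13 tested), and in Hdh7/7 Ccl5 was higher and Irf9 was lower. Rsad2, an antiviral gene, was at least 51.4-fold higher with the empty vector in Hdh109/109, the chemokine genes Cxcl10 and Ccl5 were higher by 5.05 and 3.96 on the log2 scale, and Ifit3 by 4.92. The summed signal of all 21 probes of the interferon list, undetected ones included, was 24327 to 29304 with the empty vector and 2544 to 2770 untransfected in Hdh109/109. In Hdh7/7 it was 1632 to 1852 with the empty vector and 1976 to 2403 untransfected. Whether that response plays a part in the adhesion genes was not tested.

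**Figure D4:**
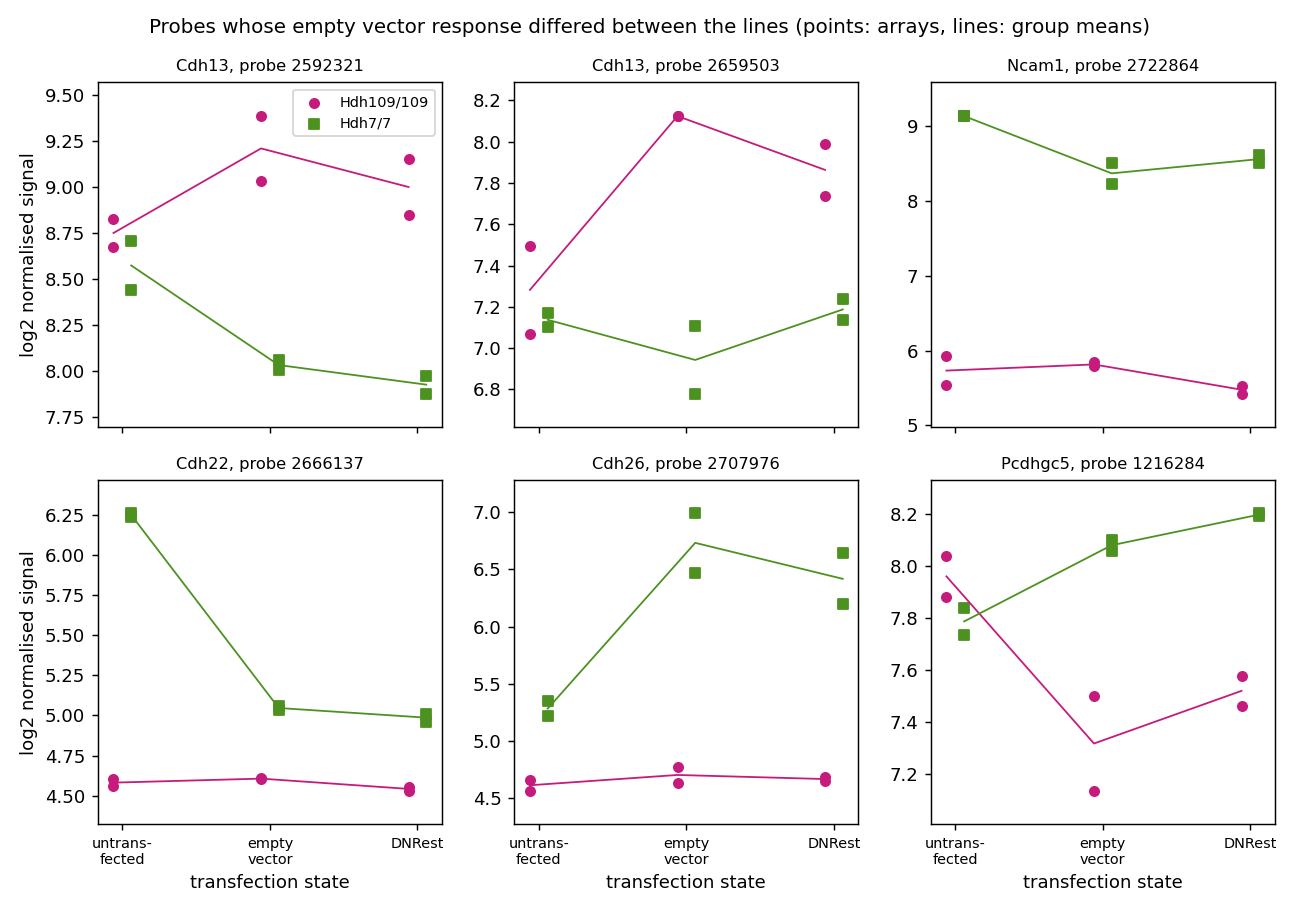
Log2 normalised signal (y axis) of the 6 probes whose empty vector response differed between the lines, in untransfected, empty vector and DNRest cells (x axis), with a point for each array and a line through the group means. Cdh13 ILMN_2659503 reads 8.13 and 8.12 in Hdh109/109 with the empty vector and 7.11 and 6.78 in Hdh7/7, while the lines overlap untransfected. The plotted Cdh22 and Cdh26 values of Hdh109/109 were not detected on any array.

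Genes that work with these adhesion molecules were read from lists, with the brightest tested probe of each gene. Each count of line calls in this and the later lists is to be read beside the share of all probes tested. That share was 35.7% untransfected, 43.3% with the empty vector and 36.9% with DNRest, and 21.3%, 48.2% and 22.7% under median scaling. The lists are short, and no count was tested against that share. Of 9 catenin and junction-linker genes tested, 1 was higher and 4 were lower in untransfected Hdh109/109, 2 and 6 in empty vector cells, and 2 and 4 in DNRest cells. Ctnnb1, the β-catenin gene, was higher at log2 fold changes of 1.02, 1.17 and 0.97 in the 3 states, and Ctnnbip1, an inhibitor of β-catenin's binding to TCF factors, was lower at −1.21, −1.37 and −1.27. Jup, which encodes plakoglobin, was lower in each state (−0.99, −1.01 and −0.42), and under median scaling in untransfected cells only. Afdn, which encodes the nectin-binding afadin, was lower with the empty vector only (−1.38, adjusted p = 0.000805). Under median scaling the counts of this list were 1 and 2, 2 and 2, and 1 and 1 in the 3 states.

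Enzymes and anchors that act on these molecules included 2 higher and 4 lower of 11 tested in untransfected cells, 3 and 3 in empty vector cells, and 3 and 2 in DNRest cells. Under median scaling these counts were 1 and 3, 6 and 2, and 3 and 2, and Cask, called lower with the empty vector (−0.42), turned to 0.23. St8sia2, the polysialyltransferase that modifies Ncam1, was undetected in untransfected Hdh109/109 and at least 4.68-fold lower there (adjusted p = 1.63e-06), and at least 2.62-fold and 2.24-fold lower with the empty vector and DNRest. The sheddase gene Adam9 was higher by 2.16, 2.84 and 2.03, and Adam10, which cuts N-cadherin, by 0.70, 0.84 and 0.72, the first of them not called under median scaling (adjusted p = 0.196). Ank3, an anchor of L1-type molecules, was lower (−1.23, −1.64 and −1.74), and Ank2 in untransfected cells only (−1.03). Among other immunoglobulin adhesion genes, 2 were higher and 6 were lower of 14 tested in untransfected cells, 4 and 6 in empty vector cells, and 4 and 5 in DNRest cells, and under median scaling 1 and 5, 4 and 3, and 3 and 4. Jam2 (−3.08) and Vcam1 (−2.98) were lower in untransfected Hdh109/109, Pvr, a partner of Nectin3, was at least 2.55-fold lower, and Icam1 was at least 1.08-fold higher. Of 3 other cadherin superfamily genes tested, none was called between untransfected lines. Clstn3 was lower in empty vector Hdh109/109 cells (−1.02, not called under median scaling), and Celsr3 was at least 1.78-fold higher in DNRest Hdh109/109 cells. No Celsr3 probe was detected on more than 2 arrays, and its line difference was −0.09 untransfected and −0.06 with the empty vector. Against the empty vector, 1 of these 3 genes was called higher with DNRest in Hdh109/109, where 0.138% of all probes were called, and none in Hdh7/7.

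**Figure D5:**
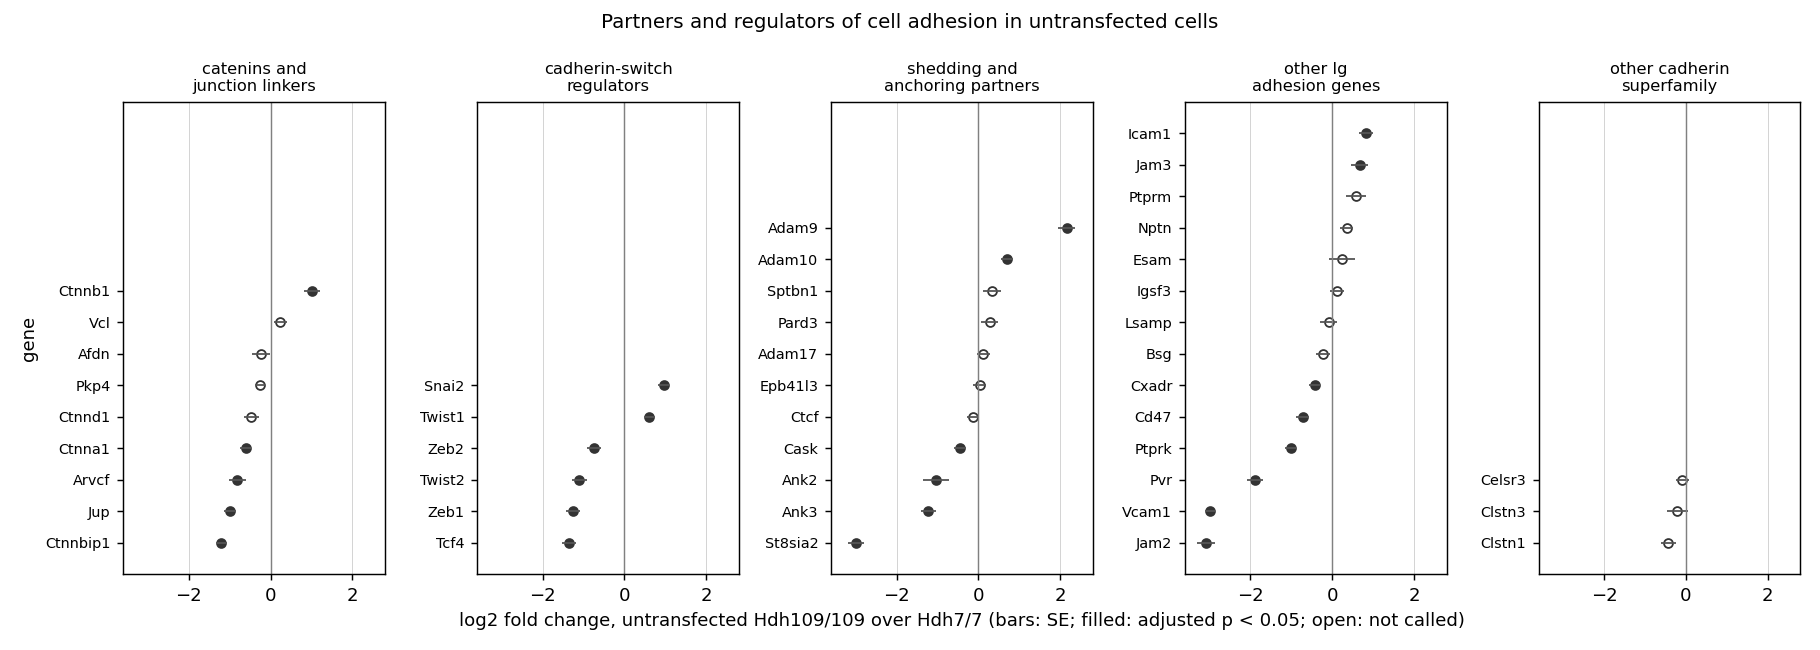
Log2 fold change of untransfected Hdh109/109 over Hdh7/7 cells (x axis, bars are SE) for genes that work with the adhesion molecules (y axis), in 5 lists, filled where the adjusted p was under 0.05. Ctnnb1 lies at 1.02 and Ctnnbip1 at −1.21, and St8sia2 at the foot of its list was not detected in Hdh109/109.

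Transcription factors of the cadherin switch, in which cells exchange cadherins as they become mesenchymal, were called for all 6 genes tested in untransfected cells, 2 higher and 4 lower. Snai2 was higher in Hdh109/109 in each state (0.96, 0.81 and 0.83), Twist2 lower (−1.11, −1.98 and −1.66) and Zeb2 lower (−0.75, −0.76 and −0.52), though under median scaling Zeb2 was called in no state and turned to 0.01 with the empty vector. Zeb1 and Tcf4 were lower in untransfected cells (−1.26 and −1.36), and with the empty vector neither was called. The empty vector gave 1 higher and 2 lower, and DNRest 2 and 3. Under median scaling the counts were 1 higher and 3 lower untransfected, 2 and 1 with the empty vector, where Twist1 was called higher (1.04), and 1 and 1 with DNRest. Snai and Zeb factors bind the letters CAGGTG, or CACCTG on the other strand. Of the 23 adhesion genes tested, 10 had a promoter entry in RefSeq's GRCm38.p6 table, and 3 of them, Alcam, Mcam and Nectin2, held those letters in the 250 bases before the start of the gene, as did 17.2% of 32851 promoters. GGGCGG, or CCGCCC, the GC box bound by Sp factors, was in 8 of the 10 and in 32.7% of all promoters. Both strands were searched, and the motifs do not overlap in the sequences shown. The upstream sequences are shown, with both motifs in capitals, for the called genes with those letters, and for Nectin3, which lacks CAGGTG and moved in the opposite direction to Nectin2. They are Alcam at chr16:52453082-52453331 on the minus strand, Mcam at chr9:44134408-44134657 on the plus strand, Nectin3 at chr16:46496968-46497217 on the minus strand and Nectin2 at chr7:19749574-19749823 on the minus strand, all 5′ to 3′.
Alcam: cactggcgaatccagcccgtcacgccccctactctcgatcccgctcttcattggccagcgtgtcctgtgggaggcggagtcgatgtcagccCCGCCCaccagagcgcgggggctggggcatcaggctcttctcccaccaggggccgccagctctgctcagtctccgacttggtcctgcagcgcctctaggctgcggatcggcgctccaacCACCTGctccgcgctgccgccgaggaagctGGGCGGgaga
Mcam: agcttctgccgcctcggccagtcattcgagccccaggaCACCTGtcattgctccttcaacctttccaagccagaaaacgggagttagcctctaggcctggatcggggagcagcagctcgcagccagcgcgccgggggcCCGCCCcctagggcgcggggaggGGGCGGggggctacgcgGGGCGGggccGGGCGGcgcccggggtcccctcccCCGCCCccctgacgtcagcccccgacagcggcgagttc
Nectin3: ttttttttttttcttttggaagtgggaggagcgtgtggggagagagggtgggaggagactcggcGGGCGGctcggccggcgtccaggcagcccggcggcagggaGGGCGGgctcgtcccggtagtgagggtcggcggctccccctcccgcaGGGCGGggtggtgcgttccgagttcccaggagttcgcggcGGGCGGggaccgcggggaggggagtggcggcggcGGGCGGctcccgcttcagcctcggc
Nectin2: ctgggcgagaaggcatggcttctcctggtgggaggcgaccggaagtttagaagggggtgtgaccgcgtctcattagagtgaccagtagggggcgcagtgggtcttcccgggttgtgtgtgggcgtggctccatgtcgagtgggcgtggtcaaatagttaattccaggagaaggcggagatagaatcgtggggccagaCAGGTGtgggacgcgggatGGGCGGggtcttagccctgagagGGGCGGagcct
Alcam and Mcam, which were lower in Hdh109/109, and Nectin2, which was higher in transfected cells, each hold the motif once. A match describes letters in a window and does not show binding.

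The lines also differed in markers of cell state, which bears on every comparison of lines. Of 8 genes of the neural progenitor list with a probe, 4 were detected on no array of either line: Hes5, Fabp7, Msi1 and Sox1. The 4 tested were lower in Hdh109/109 in all 3 states. In untransfected cells Sox2 was at least 26.6-fold and Pax6 at least 14.2-fold lower, and Hes1 and Nes stood at −2.57 and −1.28. The summed signal of that list was 788 to 817 in untransfected Hdh109/109 and 5247 to 5852 in untransfected Hdh7/7. Of 12 mesenchymal genes with a probe, Lum and Thy1 were never detected and Vim was detected on 1 array. Of the 9 tested, 8 were higher and 1 was lower untransfected, and 7 were higher and none lower in each transfected state. Untransfected, Pdgfra was at least 29.8-fold, Col1a2 at least 15-fold and Dcn at least 5.53-fold higher, and Col3a1 stood at 3.33. Under median scaling the counts were 7 and 0, 8 and 0, and 7 and 0 in the 3 states. The summed signal of all 26 probes of the mesenchymal list, undetected ones included, was 36737 to 37408 in untransfected Hdh109/109 and 16277 to 17896 in untransfected Hdh7/7. Of 11 neuron markers, 8 were never detected, among them the striatal neuron genes Drd1, Drd2 and Ppp1r1b, so the striatal origin of the lines was not visible in mature neuron genes. Of the 3 tested, Stmn2 was higher (4.69) and Map2 was lower (−1.23) untransfected, and 1 was higher and 1 (Map2, turned to 0.08 under median scaling) lower among empty vector cells, and 1 higher and none lower among DNRest cells. Of 7 endothelial markers 6 were undetected, including Pecam1, and the other, Flt1, was lower in untransfected Hdh109/109 (−1.29) and not called in either transfected state. All 6 microglial markers with a probe were undetected. Of 8 epithelial markers 6 were undetected, Epcam among them, and 1 of 2 tested, Krt19, was higher in each state, at least 2.45-fold untransfected. Glial lists gave 3 higher of 3 astrocyte genes tested in untransfected cells and 1 in each transfected state, with Gfap, Aqp4 and Slc1a2 undetected. Glul, Gja1 and Slc1a3 stood at 0.91, 0.40 and 0.76 untransfected, and Slc1a3 at 2.55 with the empty vector and 2.74 with DNRest. Under median scaling 1 astrocyte gene was called higher untransfected, 2 with the empty vector and 1 with DNRest. There was no call for the 1 oligodendrocyte gene tested, and the other 4 with a probe were undetected. The part of these markers in the adhesion differences was not tested.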

How the data were processed

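Total RNA of 12 samples was hybridised to Illumina mouse arrays, 2 arrays for each of 6 groups assigned from sample titles and genotype entries. The deposited table holds bead intensity per probe, not normalised per the file headers, and a deposited detection p-value per probe and array. The authors' series matrix, whose deposited values are on a log2 scale, was not used, because its rows did not match the probe identifiers (rank correlations of 0.0175 to 0.0341). The submitters' processing notes name limma. The scanner software is not stated in the sources used here. Background correction (nec, from detection p-values, offset 16), log2 transformation, quantile normalisation and all tests used limma 3.58.1 in R 4.3.3. Probes detected at p under 0.01 on at least 2 arrays were tested, with a mean per group and Benjamini-Hochberg adjustment over all 15224 probes tested. Gene symbols came from GEO's platform annotation, with 28471 probes named by 1 symbol, 10 by several and 16024 unnamed. The number of arrays limits the precision. The adhesion genes, the other lists and the tests were chosen with earlier results of these data known. Every adhesion gene is named, and values in every sample are given for called genes of each comparison and for probes detected on all 12 arrays. Of each list, up to 4 called genes with the largest change between lines are named. The fit was run on simulated data with changes placed in brighter probes only. That run is no check on calls of probes near background. Alternatives covered background correction, offset, scaling, detection filter, arrays fitted, replicate block and each array left out. The arrays with high background were left out in an alternative chosen after seeing the data. Promoters came from RefSeq's GRCm38.p6 table.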

Additional observations from a re-analysis of the deposited data

Results flagged for a closer look

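The response to the empty vector, Hdh109/109 minus Hdh7/7, differed between the lines for 6 adhesion probes in a test of that difference within the limma fit. On the log2 scale it was 1.04 for Cdh13 probe ILMN_2659503, 1.00 for Cdh13 probe ILMN_2592321, 0.85 for Ncam1 probe ILMN_2722864, 1.23 for Cdh22, −0.94 for Pcdhgc5 and −1.36 for Cdh26. In Hdh109/109 the Cdh22 and Cdh26 probes were undetected and the Ncam1 probe lay near background, and no other Ncam1 probe was called. Outlying arrays were not looked for within groups, because each group had 2 arrays.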

How the results depend on the processing

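Counts of called adhesion probes in the 9 comparisons were recomputed under each alternative. With only probes detected on all 12 arrays, 11 adhesion probes were tested. The counts were 4 for the untransfected lines (36.4%, against 43.8% of all probes) and 9 for the empty vector lines (81.8%, against 48.3%). They were 7 for the DNRest lines (63.6%, against 43.6%) and 2 for empty vector against untransfected in Hdh7/7 (18.2%, against 23.6%). Median scaling moved the median of all probes by up to 0.58 and gave 1 call for DNRest against empty vector in Hdh109/109, 9 for empty vector against untransfected in Hdh7/7 and 1 in Hdh109/109. With it the lines differed by 7 higher and 10 lower probes untransfected, 11 and 8 in empty vector cells, and 10 and 9 in DNRest cells, the empty vector response of Hdh7/7 had 1 higher and 8 lower, and the difference in that response had 5 higher and 0 lower. It turned the empty vector difference of Nectin1 to 0.0836, Pcdhgb4 to 0.0256 and Pcdhgc5 to 0.0302, which relative to the median of all probes were −0.53, −0.59 and −0.59. For empty vector against untransfected in Hdh7/7, no background correction and an offset of 50 gave 7 each, and fitting only the arrays compared gave 0. In Hdh109/109 no detection filter gave 1, and fitting only the arrays compared or adding the replicate block gave 0. The replicate numbers did not pair the samples (15 pairs, r from −0.447 to 0.356). For the line difference in the empty vector response, fitting only the arrays compared gave 2. Leaving out both arrays with high background leaves a single array in the untransfected Hdh109/109 group and in the Hdh7/7 empty vector group. The cause of these moves was not tested. Leaving out 1 array gave 16 to 21, 22 to 27 and 19 to 26 for the lines (untransfected, empty vector, DNRest), 0 to 2 and 0 to 0 for DNRest against empty vector (Hdh7/7, Hdh109/109), 2 to 12 and 0 to 2 for empty vector against untransfected, 0 to 3 for the line difference in the DNRest response and 1 to 9 in the empty vector response. The highest values of 2, 12, 3 and 9 all came without Hdh7/7 empty vector replicate 1, and the lowest of 1 without Hdh7/7 untransfected replicate 1. Without the arrays whose labels conflict, the empty vector lines keep a single array each, so that setting is no check on the labels. The other line comparisons could not be fitted. Of 70 line calls of single probes, 48 held in every setting in which the probe was tested, and of 12 other calls 1 did, Cdh22 in the line difference. A probe not detected on all 12 arrays never met the filter that asks for all 12, so for such probes that filter is no check. Cdh22 passed the detection rule through untransfected Hdh7/7 alone and was at background in Hdh109/109, where no fall could be seen. That it held describes the fall in Hdh7/7 and is no support for a difference between the lines in response. The slide as a block was not run, since the files used here give no slide numbers. Precision is limited by 2 arrays a group and by probes near background.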
